A study of Mus musculus with 24 samples.

Results

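Cytosolic ribosomal protein genes encode the protein part of the ribosomes that translate nuclear mRNAs, and their RNA was measured here in brain tissue of mice from a pair of Cre lines aimed at the glutamate transporter EAAT2. Members were chosen by a rule on annotation, with earlier results of these data known. It takes protein-coding genes whose symbol is Rpl or Rps followed by a digit, with Rplp0, Rplp1, Rplp2 and Rpsa. The Rps6k kinase genes and symbols carrying -ps are left out. This rule took 86 of the 52636 gene identifiers counted. They comprised 43 genes of the large subunit, 31 genes of the small subunit including Rpsa, 3 genes of the stalk (Rplp0, Rplp1 and Rplp2) and 8 paralogs (Rpl10l, Rpl22l1, Rpl36al, Rpl39l, Rpl3l, Rpl7l1, Rps27l and Rps27rt). The remaining gene, Rps19bp1, encodes a protein that binds RPS19 and is no subunit, and it is kept because the symbol pattern takes it in. After a filter on low counts 84 members were tested. Rpl10l and Rpl39l were not, because Rpl10l had 0 counts in every library and Rpl39l had 0 to 11 counts.

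The samples were 24 brain RNA libraries, 1 per mouse, in 4 groups of 6. The syn-Cre-positive mice are given in the protocol as EAAT2−/−, the gfap-Cre-positive mice as EAAT2Δ/+, and the Cre-negative mice of either line as EAAT2+/+. The syn promoter (synapsin) drives Cre in neurons and the gfap promoter in astrocytes, and the study asks how EAAT2 deficiency in neurons and in astrocytes compare. The field that the labels call cell type holds the driver (Syn or GFAP), while the source is brain. The sources used here state no age, strain or litter. No library lacked any of the 5 markers checked for neurons, astrocytes, oligodendrocytes, microglia, endothelium, choroid plexus, meninges or blood, so every library held RNA of mixed tissue. In such bulk RNA fewer cells of a type and less RNA per cell cannot be told apart.

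Gene counts per library ranged from 41596313 to 69652824, and the members took 0.979% to 1.43% of them. Levels are given as CPM, read counts relative to library size, after scaling between libraries. The targeted gene Slc1a2 had log2 fold changes of −0.14 (SE 0.08) in the syn line and −0.02 (SE 0.08) in the gfap line, Cre-positive minus Cre-negative, and edgeR's adjusted p was 1.00 in each. The 95% intervals were −0.30 to 0.02 and −0.17 to 0.14, so the labelled deletion was not detectable as a change in the counts of the whole gene, which do not look at the deleted part alone. Library gfap-Cre-negative 4 stood apart from the others of its group for most members, and results that rest on it are given with and without it.

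A ribosome is built from a small subunit, which reads the mRNA, and a large subunit, which forms the peptide bond. The subunits share no protein, most ribosomal proteins are present once per ribosome, and cells hold their mRNAs at high and matched levels. The stalk proteins P0, P1 and P2 recruit the translational GTPases. Many of these mRNAs begin with a cytosine followed by a run of pyrimidines, the terminal oligopyrimidine tract, through which LARP1 and mTORC1 signalling adjust their translation. In brain, ribosomal protein mRNAs are found in cell bodies and also in axons and dendrites.

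Sequences around the annotated transcription start are shown for the runs of pyrimidines in them. Start windows came from RefSeq promoter entries (GRCm38.p6) for 66 of the 86 members. Each window runs 5′ to 3′ from 10 bases before the annotated start through 20 bases from it on, and capitals mark a run of at least 5 bases of C or T that begins with C within 5 bases of the start. Rpl15, Rpl27a, Rps6 and Rpl13a are shown for their long runs, Rps27 and Rps27rt because most of the 50-base words of their transcripts are shared, Rpl22l1 beside its parent Rpl22, and Rpl23 as a gene with no such run.
Rpl15, chr14:18270967-18270996, minus strand: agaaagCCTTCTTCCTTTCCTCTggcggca
Rpl27a, chr7:109519185-109519214, plus strand: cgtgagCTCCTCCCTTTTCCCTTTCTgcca
Rpl13a, chr7:45128726-45128755, minus strand: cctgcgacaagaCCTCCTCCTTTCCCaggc
Rps6, chr4:86857348-86857377, minus strand: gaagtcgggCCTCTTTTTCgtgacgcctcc
Rps27, chr3:90213629-90213658, minus strand: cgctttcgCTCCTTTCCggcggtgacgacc
Rps27rt, chr9:114982720-114982749, minus strand: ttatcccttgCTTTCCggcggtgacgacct
Rpl22l1, chr3:28805498-28805527, plus strand: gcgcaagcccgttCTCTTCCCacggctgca
Rpl22, chr4:152325716-152325745, plus strand: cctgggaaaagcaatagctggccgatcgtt
Rpl23, chr11:97782420-97782449, minus strand: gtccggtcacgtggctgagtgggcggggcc

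A run of at least 5 pyrimidines led by C stood at the start of 30 of the 66 members (45.5%), against 21.2% of 27025 genes with an entry. A run of at least 8 stood at 31.8% of the members and at 5.20% of all genes. The run was searched on the transcribed strand only, for any mixture of C and T, and annotated starts can lie some bases from the true one. Large subunit genes held the shorter run in 46.9% of 32 matched genes and small subunit genes in 47.8% of 23. A match describes letters and not a working tract.

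Levels per length spread widely among members and kept their order from group to group. Rplp1, which encodes stalk protein P1, was highest at 659 CPM per kilobase of its principal transcript, averaged over 24 libraries. Next came Rps29 at 493, Rps15 at 440, Rpl3 at 367 and Rpl41 at 353 CPM per kilobase. These 5 genes were the 5 highest in each of the 4 groups. Medians were 136 CPM per kilobase for the large subunit, 174 for the small subunit, 223 for the stalk and 14.1 for the 6 tested paralogs. Across the 4 groups the median member moved by 1.5 places in the order of 84, and 25 members held the same place throughout.

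The lowest tested members were Rpl36al at 0.179 CPM, Rpl3l at 0.232 CPM and Rpl24 at 0.525 CPM, and these 3 also had the largest spread within groups. Their SD of log2 CPM within groups was 0.61, 0.71 and 0.47, against a median of 0.13 over the tested members. Rpl24 encodes a core protein of the large subunit, yet it had 13 to 45 counts per library. Its exons lie under another annotated gene, Gm28037, for 47.0% of their length on the same strand, and the files set reads that fall in more than 1 gene aside as ambiguous. Rpl36al is likewise covered for 24.5% of its length by Gm49383 and Rpl13a, at 9.63 CPM, for 35.4%. Counts of these 3 genes are therefore uncertain as levels, and whether the overlap lowers them was not tested.

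The members moved together from library to library. Their mean log2 CPM had a lowest, median and highest value of 6.22, 6.29 and 6.43 in the syn-Cre-negative group and 6.25, 6.32 and 6.36 in the syn-Cre-positive group. In the gfap line it was 6.33, 6.41 and 6.82 in the Cre-negative group and 6.29, 6.48 and 6.67 in the Cre-positive group. All 4 groups overlapped. The gfap groups reached higher, and their SDs of 0.18 (Cre-negative) and 0.13 (Cre-positive) stood against 0.08 and 0.05 in the syn groups. Without library gfap-Cre-negative 4 the SD of the gfap-Cre-negative group was 0.06, over values of 6.33 to 6.48. Library gfap-Cre-negative 4 was highest of its 6 for 81 of 84 members (96.4%), while it was highest for 28.9% of all genes tested. In the Cre-positive group of the gfap line, library 4 was highest for 63 members (75.0%, against 20.5% of all genes) and library 1 lowest for 73 (86.9%, against 19.6% of all genes).

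**Figure D1:**
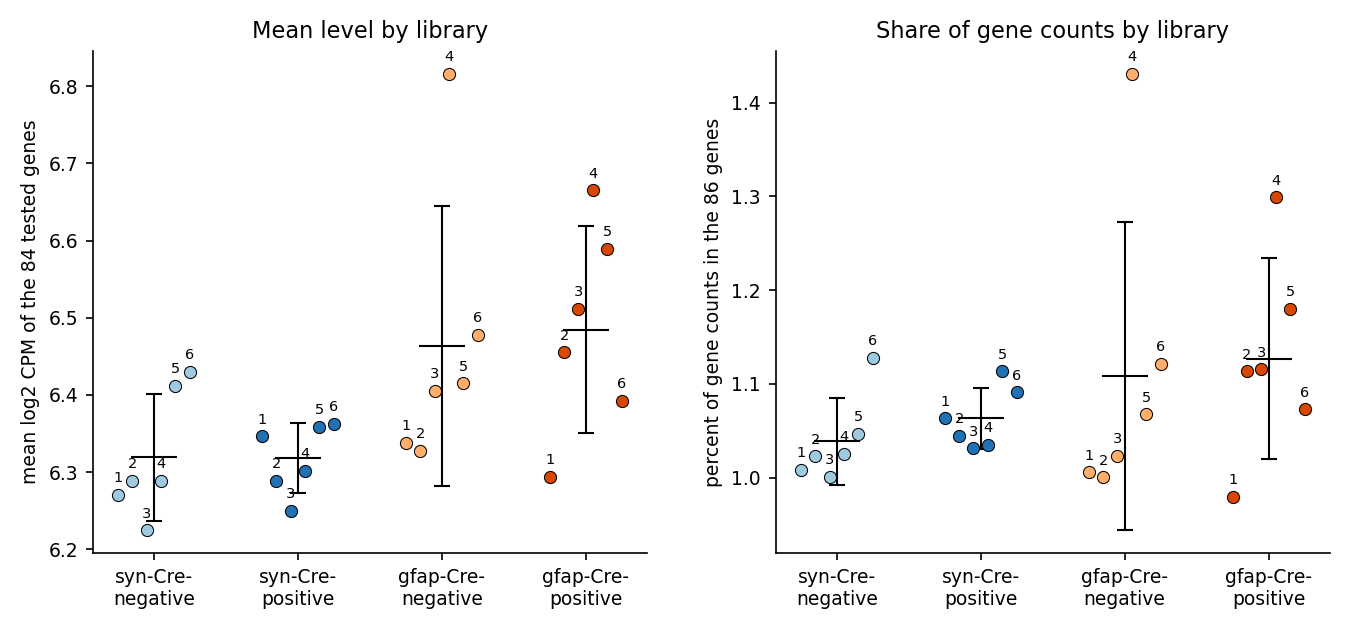
Mean log2 CPM of the 84 tested members (left) and percent of gene counts in all 86 members (right), 1 point per library with its replicate number, grouped by line and Cre status; the horizontal bar is the group mean and the error bar the SD over 6 libraries. Library 4 of the gfap-Cre-negative group lies above every other library at 6.82 and 1.43%, and the syn groups lie in the lower range.

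The shared shift took up most of the spread of a typical member. The SD of log2 CPM within groups had a median of 0.13 over the 84 members and of 0.05 after the mean of the other members in the same library was subtracted, and it became smaller for 79 of 84. For 5960 other genes averaging 5 or more in log2 CPM, the same subtraction raised the median SD from 0.10 to 0.15 and lowered the SD of 15.7%. The mean log2 CPM of small subunit genes exceeded that of large subunit genes by 0.49 to 0.56 in all 24 libraries, counted per gene and not per length. The large subunit mean includes Rpl24 (0.525 CPM) and Rpl13a (9.63 CPM), whose counts are uncertain as levels. The lowest small subunit gene stood at 54.2 CPM. The gap without Rpl24 and Rpl13a was not taken, so it is not read as a difference between subunits. The libraries share their scaling factors, so these values describe co-variation and carry no test. Genes of mitochondrial ribosomal proteins and of oxidative phosphorylation were highest in some of the same libraries, as given below.

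**Figure D2:**
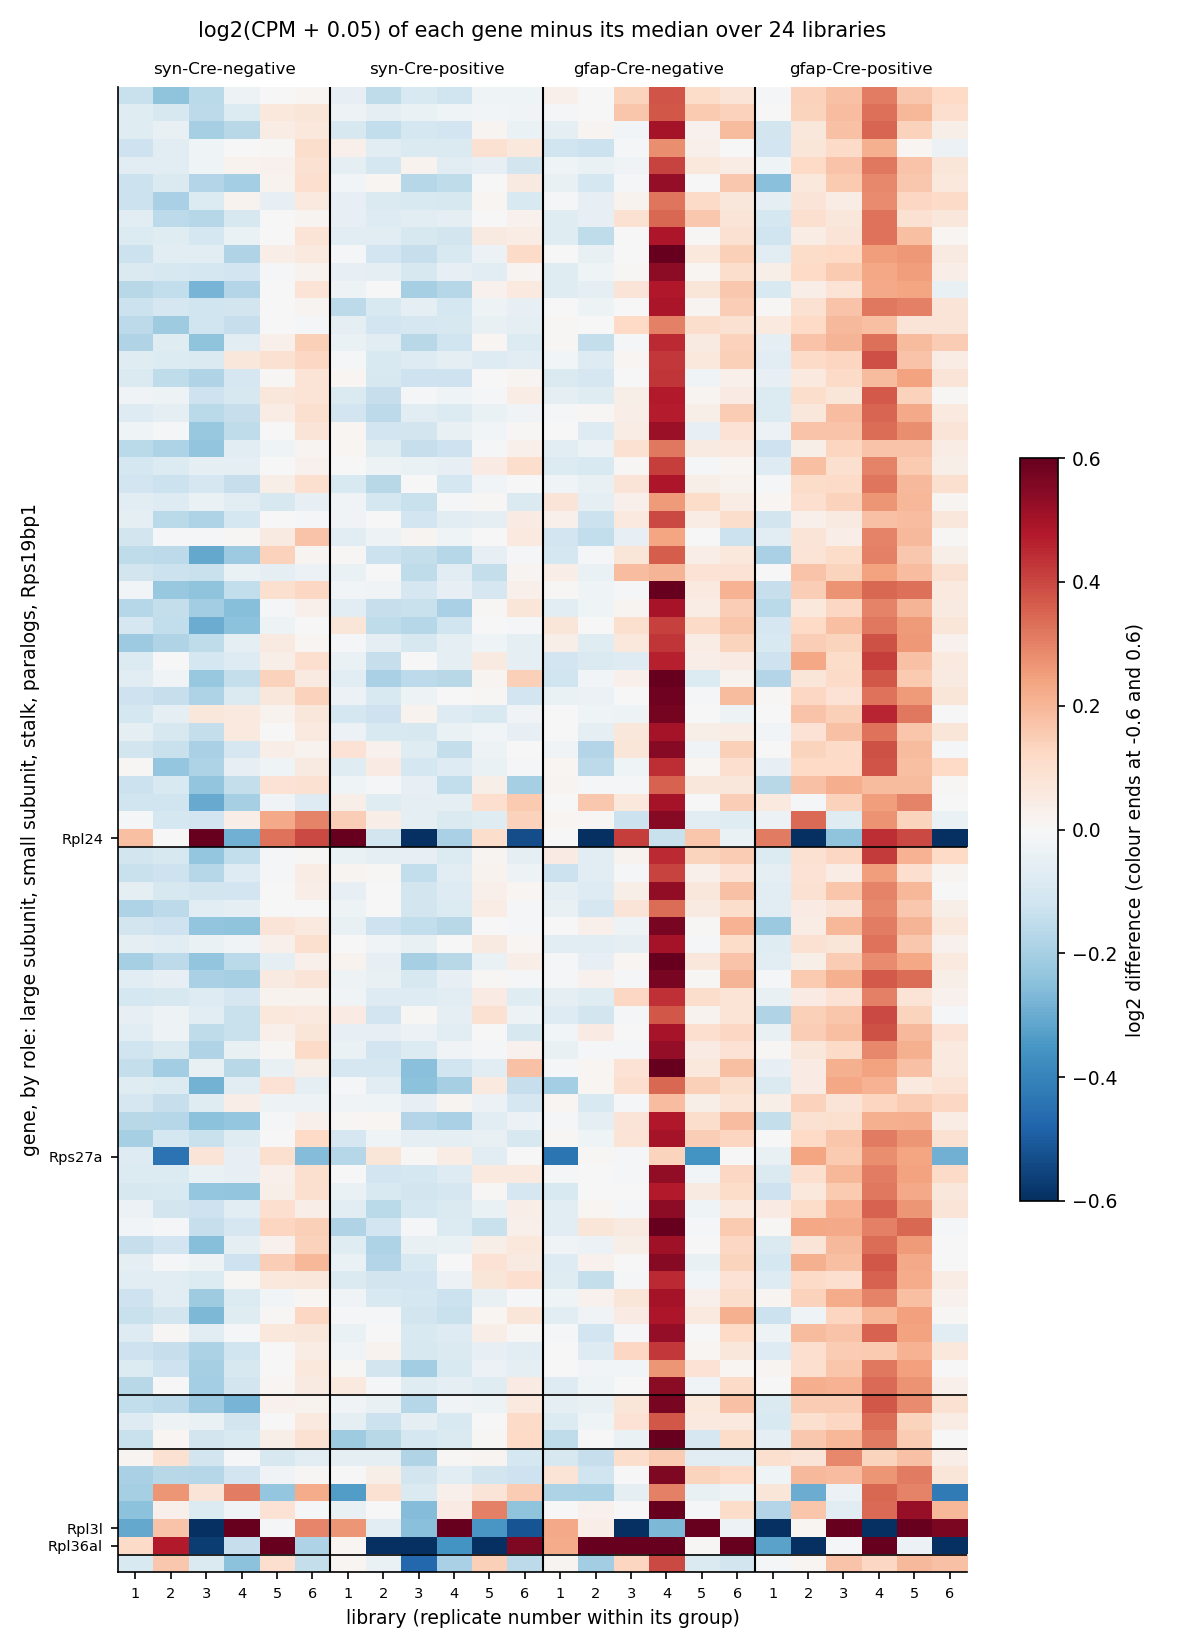
log2(CPM + 0.05) of each of the 84 tested members minus its median over the 24 libraries, with genes in rows by role and by falling level within a role (4 of them labelled), and libraries in columns by group; red is above and blue below the gene's median. Columns are nearly uniform in colour across both subunits, library 4 of the gfap-Cre-negative group stands out in red, and Rpl24, Rps27a, Rpl3l and Rpl36al do not follow the columns.

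After the low gene Rpl24, Rps27a was the subunit gene with the largest SD left once the mean of the other members was subtracted. It was chosen after its values were seen. It encodes ubiquitin fused to the small subunit protein eS31. Its level had a lowest, median and highest value of 98.7, 128 and 143 CPM in the syn-Cre-negative group and 119, 135 and 141 CPM in the syn-Cre-positive group. The gfap-Cre-negative group had 99.0, 134 and 147 CPM and the gfap-Cre-positive group 110, 154 and 163 CPM. Libraries gfap-Cre-negative 1 and 5, gfap-Cre-positive 6 and syn-Cre-negative 2 were low, and the groups overlapped. Its SD within groups was 0.19 and stayed at 0.18 after the mean of the other members was subtracted. Among subunit genes of smaller SD, that of Rps15a rose from 0.059 to 0.093, Rpl22 from 0.073 to 0.081 and Rpl10 from 0.070 to 0.072. Rps27a also showed the largest change of place in the order per length, 9 places. The gfap Cre difference of Rps27a was 0.20 on the log2 scale (SE 0.10, 95% interval −0.01 to 0.42), with an edgeR adjusted p of 1.00.

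No member passed the test between Cre-positive and Cre-negative mice of the syn line. Of 84 members, 0 were higher and 0 lower (edgeR quasi-likelihood test, adjusted p under 0.05 over 19726 genes), where 0.00507% of all genes were called. DESeq2 and limma-voom called 0 as well. At an unadjusted p under 0.05 there was 1 member, against 4.67% of all genes. The members' median log2 fold change was 0.01, with 51 positive and 33 negative, and that of all genes −0.00294. For 80 of 84 members the 95% interval lay within 0.32 log2 units of 0. The 4 others were Rpl3l, Rpl36al and Rpl24, with at most 45 counts per library, and Rps27l, with 256 to 481.

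The syn Cre differences with the smallest p were those of Rpl23a, Rpl36al and Rpl24. Rpl23a, a large subunit protein at the exit of the peptide tunnel, had a lowest, median and highest value of 17.4, 19.7 and 21.1 CPM in the Cre-negative group and 20.4, 21.3 and 23.9 CPM in the Cre-positive group. These groups overlapped, and the log2 difference was 0.16 (SE 0.08, interval 0.00 to 0.31, unadjusted p = 0.0446, edgeR adjusted p = 1.00). For Rpl36al it was −0.67 (SE 0.46) and for Rpl24 −0.36 (SE 0.29), each with an adjusted p of 1.00 and on at most 45 counts per library.

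In the gfap line no member passed either. Again 0 of 84 were called in either direction by edgeR, DESeq2 or limma-voom, where edgeR called 0.0101% of all genes. Unadjusted p lay under 0.05 for 2 members, against 2.99% of all genes. The median log2 fold change was 0.02, with 66 positive and 18 negative, and that of all genes −0.00261. Without library gfap-Cre-negative 4 the members' median was 0.11, still with 0 called. Intervals lay within 0.32 log2 units of 0 for 80 of 84 members, the others being Rpl3l, Rps27a, Rpl36al and Rpl24.

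Smallest p in the gfap line went to Rpl7l1, Rpl36al and Rpl23. Rpl7l1, a paralog of Rpl7 that works in assembly of the large subunit, had a lowest, median and highest value of 32.4, 34.1 and 39.8 CPM in the Cre-negative group and 36.7, 38.7 and 43.6 CPM in the Cre-positive group. The groups overlapped, and the log2 difference was 0.15 (SE 0.06, interval 0.04 to 0.27, unadjusted p = 0.0111, edgeR adjusted p = 1.00). Rpl36al had 0.154, 0.309 and 0.409 CPM against 0.0400, 0.130 and 0.264 CPM in the Cre-positive group, a log2 difference of −1.14 (SE 0.43, unadjusted p = 0.0135, adjusted p = 1.00) on 2 to 21 counts per library. Rpl23, of the large subunit, differed by 0.12 (SE 0.06, adjusted p = 1.00).

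The Cre differences of the lines were also compared with each other. No member passed the test of that difference (0 of 84 by edgeR, DESeq2 and limma-voom, against 0.0101% of all genes by edgeR), and 1 had an unadjusted p under 0.05, against 3.50% of all genes. The members' median of syn minus gfap was −0.02. Rpl7l1 had the smallest p, with −0.19 (SE 0.08, interval −0.35 to −0.02, unadjusted p = 0.0254, adjusted p = 1.00), followed by Rpl23a with 0.19 (SE 0.11) and Rpl23 with −0.15 (SE 0.09), both at an adjusted p of 1.00. A threshold that is missed does not show equality, and 62 of 84 intervals for this difference lay within 0.32 log2 units of 0.

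**Figure D3:**
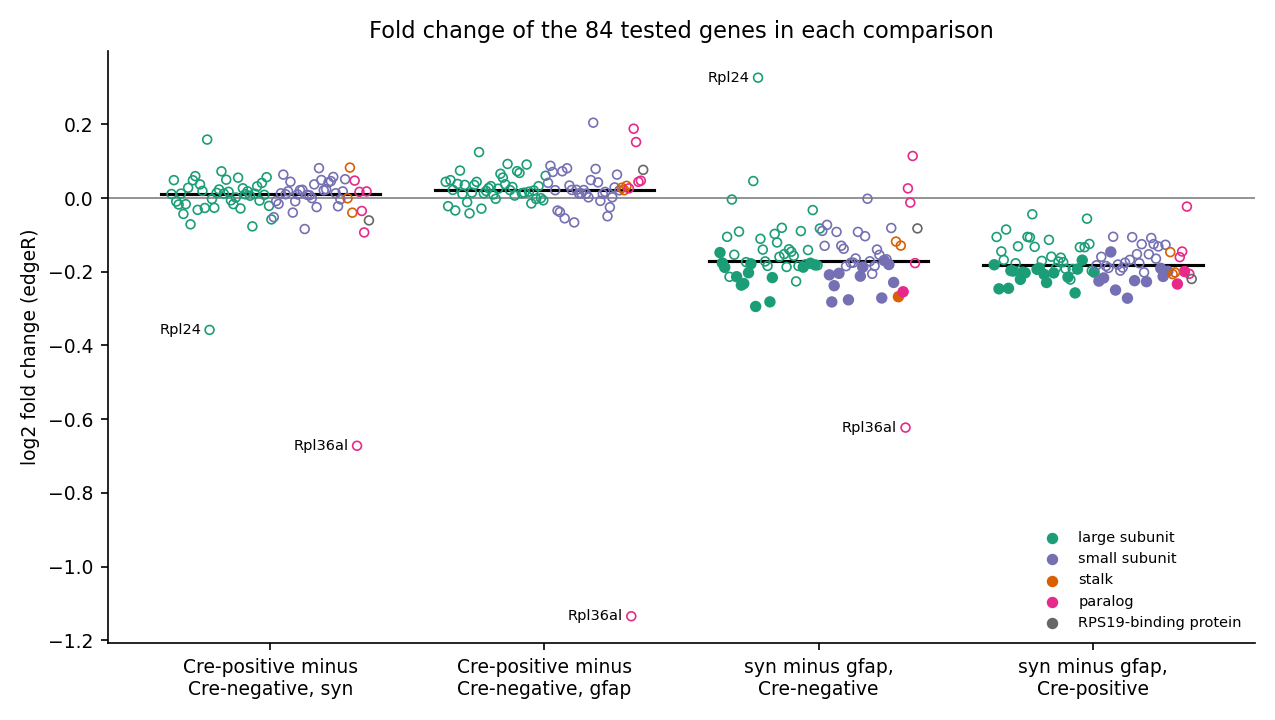
log2 fold change of each of the 84 tested members in 4 comparisons, coloured by role; filled points passed edgeR's test at an adjusted p under 0.05, open points did not, and the black line is the members' median. Medians lie at 0.01 and 0.02 in the Cre comparisons and at −0.17 and −0.18 in the comparisons of the lines, where filled points are all negative; Rpl24 and Rpl36al scatter most.

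Between the lines the members did differ. Among Cre-negative mice, 27 of 84 were lower in the syn line than in the gfap line and 0 were higher, where 16.6% of all genes were lower and 14.6% higher. Members called lower were 14 of the large subunit, 11 of the small subunit, Rplp1 of the stalk and the paralog Rpl22l1, with log2 differences from −0.29 to −0.15. The median over all 84 was −0.17 (−11.1%), against −0.02 over all genes, and 80 of 84 were negative. The 4 that were not were Rpl23, Rpl24, Rpl3l and Rps27l, none of which was called. All libraries of 1 line lay under all of the other for 2 members, Rpl15 and Rpl23a, where 5.43% of all genes were lower in that way.

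Rpl15 (ENSMUSG00000012405, GRCm38 chromosome 14, 18267823 to 18271391), a large subunit protein whose start window carries the 17-base run shown above, had the smallest p. Its level had a lowest, median and highest value of 121, 128 and 140 CPM in the syn-Cre-negative group and 140, 150 and 173 CPM in the gfap-Cre-negative group. The groups touched without overlapping, and it fell by 0.21 on the log2 scale (SE 0.05, edgeR adjusted p = 0.00137). Rpl23a (ENSMUSG00000058546, chromosome 11, 78180932 to 78183584) had 17.4, 19.7 and 21.1 CPM against 21.4, 23.1 and 30.3 CPM. It fell by 0.29 (SE 0.08, adjusted p = 0.00434), again without overlap. Exons of Rpl23a lie under Tlcd1 or Snord42b for 62.3% of their length on either strand and for 2.60% on the same strand. It shares 85.7% of its 50-base words with transcripts of other genes. The strand used in counting is not stated, so its count is uncertain as a level.

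Rpl3 (ENSMUSG00000060036, chromosome 15, 80077791 to 80091868), which lies near the peptidyl transferase centre, had a lowest, median and highest value of 409, 458 and 489 CPM in the syn-Cre-negative group and 483, 517 and 630 CPM in the gfap-Cre-negative group. These ranges overlapped at their edges, and it fell by 0.22 (SE 0.06, adjusted p = 0.00622). Rpl29 fell by 0.28 (SE 0.07, adjusted p = 0.00306) and Rpl22 by 0.18 (SE 0.05, adjusted p = 0.00547), both with overlap. On the small subunit, Rps14, of the platform, fell by 0.28 (SE 0.09, adjusted p = 0.0143). Without gfap-Cre-negative 4 its difference was −0.16 (edgeR adjusted p = 0.0477), and the call was lost with the compared groups alone (−0.25, adjusted p = 0.0667) and without the syn libraries above 1000 CPM of Ttr (−0.27, adjusted p = 0.104).

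Farthest below the members' median stood Rpl36al at −0.62 (SE 0.41, not called), Rpl23a and Rps14. Farthest above it stood Rpl24 at 0.33 (SE 0.29), Rps27l at 0.11 (SE 0.13) and Rpl23 at 0.05 (SE 0.06), none of them called. Rpl23 is the only ordinary subunit gene among these 3, with 92.6, 99.9 and 113 CPM in the syn-Cre-negative group and 90.3, 94.5 and 118 CPM in the gfap-Cre-negative group. With the trend of principal transcript length removed, an alternative chosen after seeing the data, it was higher in the syn line by 0.13 (edgeR adjusted p = 0.00948).

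The size of this difference depended on library gfap-Cre-negative 4. Without it the members' median was −0.07 and 7 were called, all lower. The share of all genes called without it is not given here, so whether these 7 exceed that share cannot be read. The 5 members with the smallest p (Rpl15, Rpl29, Rpl23a, Rpl22 and Rpl3) still passed, with log2 differences of −0.16, −0.21, −0.20, −0.14 and −0.15. Without the syn libraries above 1000 CPM of Ttr, Rpl29 (−0.22, edgeR adjusted p = 0.0727) and Rpl23a (−0.23, adjusted p = 0.101) lost their calls. Leaving out syn-Cre-negative 3 gave 15 called members and leaving out syn-Cre-negative 6 gave 42, again with no share of all genes given.

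Cre-positive mice of the lines were compared with no library shared with the Cre-negative comparison. Here 30 of 84 members were lower in the syn line and 0 were higher, where 14.7% of all genes were lower and 12.8% higher. Called members were 18 of the large subunit, 10 of the small subunit, 0 of the stalk and the paralogs Rpl22l1 and Rpl7l1, with log2 differences from −0.27 to −0.15. The median was −0.18 (−11.8%), against −0.02 over all genes, and all 84 were negative. For 12 members all syn libraries lay under all gfap libraries, against 7.64% of all genes. Among them were Rpl3, Rpl4, Rpl10, Rpl11, Rpl15, Rpl27, Rpl27a, Rps13, Rps15a, Rps25 and Rpl7l1.

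Rpl22 (ENSMUSG00000028936, chromosome 4, 152325742 to 152334071), an RNA-binding protein of the large subunit, had the smallest p. Its level had a lowest, median and highest value of 86.02, 92.2 and 96.7 CPM in the syn-Cre-positive group and 95.8, 106 and 113 CPM in the gfap-Cre-positive group. Only the edges overlapped, and it fell by 0.20 (SE 0.05, edgeR adjusted p = 0.00251). Rpl15 had 130, 133 and 136 CPM against 146, 150 and 160 CPM, without overlap, and fell by 0.20 (SE 0.05, adjusted p = 0.00328).

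Rpl3 had a lowest, median and highest value of 436, 462 and 475 CPM in the syn-Cre-positive group and 483, 538 and 598 CPM in the gfap-Cre-positive group, and fell by 0.23 (SE 0.06, adjusted p = 0.00484). Rpl11, a 5S rRNA partner that also binds MDM2, had 126, 133 and 137 CPM against 140, 153 and 174 CPM and fell by 0.25 (SE 0.07, adjusted p = 0.00878). Both were lower in every syn library than in any gfap library. Rpl10, which completes the large subunit before it can join the small one, fell by 0.18 (SE 0.05, adjusted p = 0.00714). Rpl15, Rpl3, Rpl10 and Rpl11 lost their calls without the syn libraries above 1000 CPM of Ttr, a fit on fewer libraries. Their differences there were −0.17, −0.21, −0.15 and −0.24 (edgeR adjusted p = 0.0701, 0.0692, 0.143 and 0.0935). With the trend of principal transcript length removed, Rpl15 (−0.09, adjusted p = 0.0541) and Rpl10 (−0.07, adjusted p = 0.160) lost theirs.

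Here single libraries moved the count of called members, and the share of all genes called in each such fit is not given. Leaving out syn-Cre-positive 2, 3, 4 or 6 gave 18, 19, 19 and 14 called members, and leaving out gfap-Cre-positive 1, 2, 4 or 5 gave 48, 16, 14 and 11. The median stayed between −0.22 and −0.14.

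Of the members called lower, 13 were called in both comparisons of the lines, which is 15.5% of the 84, 48.1% of the 27 and 43.3% of the 30. Over all genes tested 10.6% were lower in both, which is 64.0% of those lower in Cre-negative and 72.3% of those lower in Cre-positive mice. Without gfap-Cre-negative 4, 4 of the 7 members then lower in Cre-negative mice (Rpl3, Rpl15, Rpl22 and Rpl29) were among the 30. With all libraries, the 13 included Rpl3, Rpl4, Rpl10, Rpl11, Rpl15, Rpl21, Rpl22, Rpl29, Rps13, Rps25, Rpsa and Rpl22l1. Another 40 members passed in neither comparison. The counts depended on scaling and filter: with upper-quartile factors 12 and 7 members were called, and with at least 1 CPM in 6 libraries 12 and 8, all lower. Shares of all genes called are not given for these fits. Both comparisons set the same lines against each other, and driver, breeding, tissue handling and sequencing cannot be told apart from line in them.

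**Figure D4:**
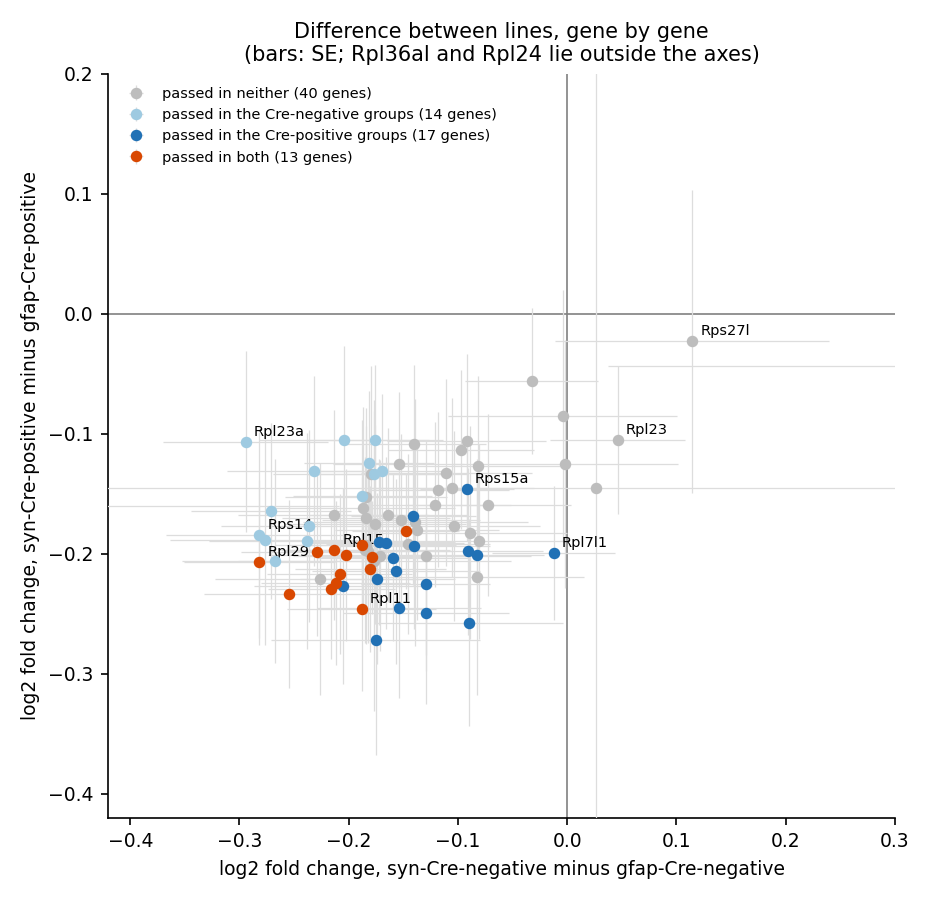
log2 fold change of the members between the lines in Cre-negative mice (horizontal axis) and in Cre-positive mice (vertical axis), with bars of 1 SE and colours for the comparison in which a gene passed edgeR's test. The points cluster near −0.17 and −0.18, 13 genes passed in both, and Rpl23 and Rps27l lie to the right of 0 on the horizontal axis.

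Other measures moved with line beside the members. Reads outside annotated genes made up 7.52% to 11.1% of reads in syn libraries and 4.47% to 6.37% in gfap libraries, without overlap. Summed choroid plexus markers reached 5025.5 and 5286 CPM in the highest libraries of the syn groups and 270 and 200 CPM in those of the gfap groups, and 5 of 5 markers were higher in the syn line in Cre-negative and 3 of 5 in Cre-positive mice. Oligodendrocyte markers were higher in the syn line for 5 of 5 genes in each comparison (medians 0.37 and 0.59), and neuron markers lower for 5 and 3 of 5 (medians −0.22 and −0.23). Endothelial markers were lower for 2 and 4 of 5 (medians −0.23 and −0.37), microglial markers for 1 and 2 of 5, with P2ry12 at −0.34 and −0.43, and blood markers higher for 2 and 1 of 5. Astrocyte markers were lower for 1 of 5 in each comparison and higher for 0 and 1, and 0 of 5 meningeal markers were called. Without the 3 syn libraries per group above 1000 CPM of the choroid plexus gene Ttr, the members' medians were −0.14 and −0.18 and 3 and 1 members were called. That fit holds fewer libraries, and its share of all genes called is not given here. The part of the other markers and of the reads outside genes in the members' difference was not tested.

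Transcript length moved with it too. The members' principal transcripts had a median of 803.5 bases, against 2926 bases for all tested protein-coding genes. Other protein-coding genes of up to 1000 bases had medians of −0.09 between the lines in both Cre-negative and Cre-positive mice, and those above 4000 bases −0.01 in each. Library gfap-Cre-negative 4 exceeded the median of the other 5 of its group by 0.37 for other genes of up to 1000 bases and by 0.44 for the members, and lay under it by −0.20 for genes above 4000 bases. With the trend of principal transcript length removed, the members' medians were −0.07 in both comparisons, with 21 members lower and 1 higher in Cre-negative mice and 14 lower in Cre-positive mice. The share of all genes called in that fit is not given here, so these counts cannot be set against it.

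Members were also split by the pyrimidine run and by shared sequence. The 30 tested members with a run of at least 5 had medians of −0.16 and −0.18 between the lines, with 7 and 8 called, and the 34 tested members without one −0.17 and −0.19, with 11 and 13 called. Ribosomal protein genes have many processed pseudogenes, and 48 members shared at least 50% of their 50-base words with transcripts of other genes. Those 48 had medians of −0.17 and −0.18 and the other 36 of −0.17 and −0.19. Reads placed in several positions made up 13.7% to 15.6% of reads and were not counted to genes, and their part in the levels was not tested.

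In counts per kilobase the paralogs ranged from the level of their parent to nearly nothing. Rpl22l1 stood at 104% to 110% of Rpl22 per kilobase over the 4 groups, Rpl7l1 at 9.84% to 10.9% of Rpl7, Rps27l at 5.87% to 6.84% of Rps27 and Rps27rt at 5.22% to 5.49% of Rps27. For Rpl22l1 and Rpl22 the ratio rests on principal lengths of 552 and 2048 bases. Their means were 28.1 and 97.3 CPM, and they shared 65.6% and 24.5% of their 50-base words with other genes. Rpl36al, Rpl3l and Rpl39l, the last of which is known from testis, stayed under 0.330% of Rpl36a, Rpl3 and Rpl39 in every group. Gm49383 covers 24.5% of the exons of Rpl36al on the same strand and holds 59.5% of its 50-base words. The low count of Rpl36al is therefore uncertain as a level. Rpl10l, a testis gene without introns, was at 0 counts in all 24 libraries, where 3 counts in a library would be 0.0431 to 0.0721 CPM. Rps27rt shares 91.1% of its 50-base words with Rps27, so its 4.89 CPM may include reads of the parent.

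Rpl22l1 was lower in the syn line together with Rpl22. Its level had a lowest, median and highest value of 23.8, 24.8 and 27.4 CPM in the syn-Cre-negative group and 25.1, 29.3 and 40.2 CPM in the gfap-Cre-negative group. It fell by 0.25 (SE 0.08, edgeR adjusted p = 0.0148), and in Cre-positive mice by 0.23 (SE 0.08, adjusted p = 0.0268), a call that 13 alternatives lost, with values from −0.22 to −0.10. The Cre-negative call was lost without gfap-Cre-negative 4, at −0.14 (edgeR adjusted p = 0.0753). It was also lost with the compared groups alone (−0.23, adjusted p = 0.0777) and without the syn libraries above 1000 CPM of Ttr (−0.25, adjusted p = 0.0946).

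Rpl7l1 was called lower in the syn line among Cre-positive mice. Its level had a lowest, median and highest value of 31.5, 34.3 and 36.1 CPM in the syn-Cre-positive group and 36.7, 38.7 and 43.6 CPM in the gfap-Cre-positive group. It fell by 0.20 between them (SE 0.06, adjusted p = 0.00981) with no overlap, while the Cre-negative groups, with medians of 34.9 and 34.1 CPM, were not called apart. Without the syn libraries above 1000 CPM of Ttr the Cre-positive call of Rpl7l1 was lost (−0.18, edgeR adjusted p = 0.0970). Its parent Rpl7 was not called in either comparison. The difference between these comparisons is the difference of Cre effects given above for Rpl7l1, which did not pass.

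**Figure D5:**
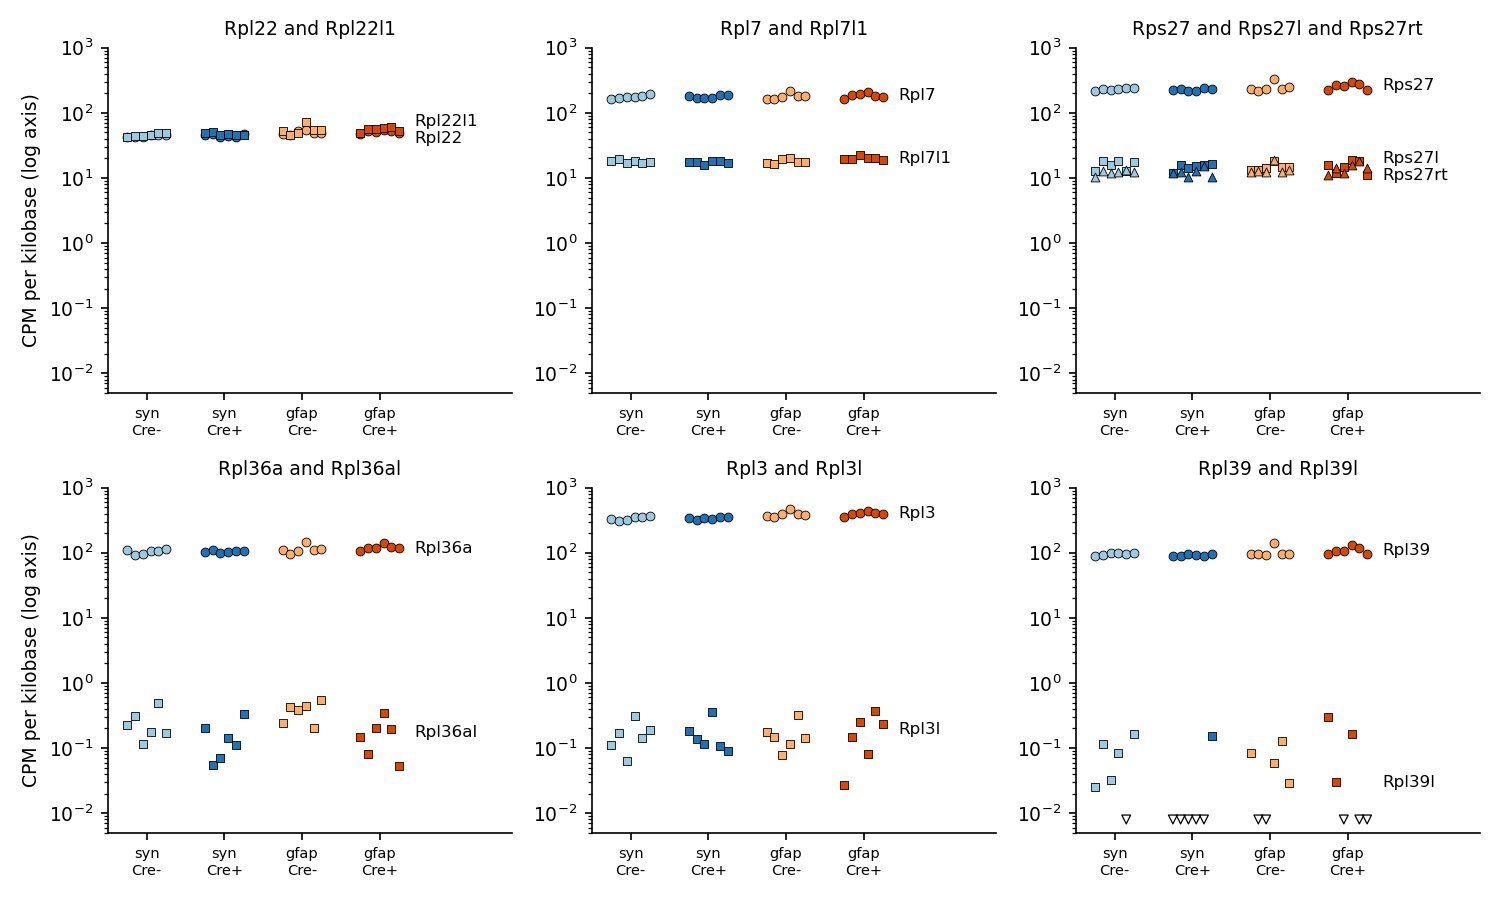
CPM per kilobase of principal transcript (log axis) of 6 parent genes (circles) and their paralogs (squares, and triangles for Rps27rt) in each library of the 4 groups; open triangles at the foot mark libraries with 0 counts. Per kilobase Rpl22l1 lies on its parent at 104% to 110%, Rpl7l1, Rps27l and Rps27rt lie about a decade or more below, and Rpl36al, Rpl3l and Rpl39l lie near the counting limit. The count of Rpl36al, which another annotated gene overlaps, is uncertain as a level.

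Other genes of translation were read from lists with the members' comparisons. In the Cre comparisons 0 genes of any such list were called. Between the lines, initiation factors were lower for 19 of 29 genes in Cre-negative and 22 of 29 in Cre-positive mice (both medians −0.16), and elongation factors for 7 and 6 of 9 (both medians −0.18). Over all genes the shares called lower were 16.6% and 14.7% and those called higher 14.6% and 12.8%, against which each list's counts are to be read. Eif3j1, a subunit of the factor that keeps the small subunit ready for mRNA, has a near-identical copy in Eif3j2, so that its count is uncertain. It fell by 0.75 (SE 0.07, adjusted p = 1.52e-07) and 0.72 (SE 0.07, adjusted p = 2.17e-07). Eef1a1, which delivers aminoacyl-tRNA, fell by 0.18 (SE 0.05, adjusted p = 0.00708) in Cre-negative mice. Among ribosome-associated genes outside the rule, which include the fusion subunit gene Fau, 3 of 7 were lower in each comparison, with Btf3 lower by −0.28 (SE 0.06, adjusted p = 0.00140) in Cre-negative mice.

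Genes that build ribosomes or regulate their mRNAs were read from the same lists. Biogenesis genes were lower for 7 and 6 of 25 (both medians −0.11), with Nop58, of the small nucleolar particles, lower by −0.26 (SE 0.05, adjusted p = 0.000242) in Cre-negative mice. RNA polymerase I genes, which make rRNA, were higher for 2 and lower for 0 of 14 in Cre-negative mice, and higher for 1 and lower for 3 in Cre-positive mice, and the 2 of 14 are near the 14.6% of all genes called higher. Taf1a, of the selectivity factor, was higher by 0.39 (SE 0.07, adjusted p = 0.000315) and 0.21 (SE 0.07, adjusted p = 0.0365). Among regulators in mTORC1 signalling and of pyrimidine-tract mRNAs, 2 were higher and 4 lower of 18 in Cre-negative and 2 higher and 3 lower in Cre-positive mice, with the inhibitor Tsc1 higher by 0.26 (SE 0.06, adjusted p = 0.00111) and 0.19 (SE 0.06, adjusted p = 0.0134).

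A pair of groups outside cytosolic translation was read beside these. Mitochondrial ribosomal proteins were lower for 25 and 26 of 77 tested genes (both medians −0.15) and nuclear-encoded genes of oxidative phosphorylation for 17 and 24 of 50 (medians −0.17 and −0.20). In both lists 0 genes were higher. Their mean log2 CPM was highest in library gfap-Cre-negative 4 of its group, at 4.71 and 6.69 against group medians of 4.39 and 6.21. Both lists were also highest in gfap-Cre-positive 4 and syn-Cre-negative 6 of their groups. The members were highest in the same libraries, so these peaks are not particular to them.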

How the data were processed

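Brain RNA of 24 mice was sequenced. The authors deposited, for each library, raw read counts by Ensembl gene with no scaling. Per the submitters' processing notes the tools were HISAT2, HTSeq 0.6.0 and DESeq2 1.6.3, on mm10; the sources used here state neither strand nor annotation release. Lines that name no gene (reads outside genes, ambiguous, placed in several positions) entered neither library sizes nor tests.

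Symbols came from GENCODE M21 (GRCm38) by Ensembl identifier and matched 99.7% of 52636. Length is that of the principal transcript. Counts were fitted with edgeR 4.0.16 in R 4.3.3 (TMM factors, its own filter on low counts, quasi-likelihood test, 1 model of 4 groups with 20 residual degrees of freedom, Benjamini-Hochberg adjustment over 19726 genes, threshold 0.05). The 5 contrasts were the Cre effect by line, its difference between lines, and syn minus gfap by Cre status. Fold changes are log2 values, and CPM levels use the same factors; log2 CPM uses a prior count of 2. The fit was tested on simulated counts. Replicate numbers only name libraries. The p-values set group differences against the spread between mice, which are taken as independent. Nothing says how the mice were housed or bred, so this independence could not be checked. Counting intervals and floors cover counting error only.

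Members and lists were chosen with earlier results of these data known. Named genes were, per contrast, up to 6 called members per direction by p or else the 3 with the smallest p, the highest and lowest levels, the largest spreads, the extremes of the Cre-negative line difference, every paralog with its parent and, per list, genes with the smallest p. Rps27a was named after its values were seen. Some genes that this rule takes are not reported here; they stay in every fit and count. Alternatives were RLE and upper-quartile factors, factors from other genes, limma-voom 3.58.1 with quality weights, DESeq2 1.42.0, no filter, a floor of 1 CPM in 6 libraries, only the groups compared, trends of exonic length, principal transcript length (chosen after seeing the data) and GC removed, no syn libraries above 1000 CPM of Ttr, and each library left out.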

Additional observations from a re-analysis of the deposited data

Results flagged for a closer look

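In each group of 6 libraries the highest or lowest library was set against the others by its gap to the nearest divided by the group's range, and a ratio above 0.625 was taken as standing apart. Of 116 such tests 23 passed, where chance gives about 1 in 20, and 18 of the 23 came from library gfap-Cre-negative 4. Over all tested members, 61 of 84 set that library apart. The members vary together, so these are not separate results, and the share of all genes under the same rule is not given here. Within its group that library was highest for 28.9% and lowest for 27.8% of all genes tested.

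In gfap-Cre-negative 4 the mean log2 CPM was 6.82 over the members (6.33 to 6.48 in the other 5 libraries), 6.95 over large subunit genes (6.45 to 6.61) and 7.51 over small subunit genes (6.99 to 7.16). The members took 1.43% of its gene counts, against 1.00% to 1.12%. Among large subunit genes it had, in CPM, Rpl3 at 630.2, Rpl11 at 196, Rpl15 at 173, Rpl23 at 118, Rpl23a at 30.3, Rpl29 at 99.2 and Rpl41 at 273. Among small subunit genes it had Rps14 at 290.7, Rps15 at 321 and Rps29 at 272 CPM. The stalk gene Rplp1 stood at 473 CPM (308 to 361 in the others), and the paralogs Rpl22l1, Rps27l and Rps27rt at 40.2, 9.21 and 7.06 CPM (25.1 to 30.0, 6.53 to 7.29 and 4.63 to 5.03).

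Single libraries of the syn line stood apart as well. In syn-Cre-negative 6 the members took 1.13% of gene counts (1.00% to 1.05% in the others). In syn-Cre-negative 5 reads outside genes made up 11.1% and ambiguous reads 7.46% (3.19% to 3.92% in the others). Rpl3l reached 0.487 CPM in syn-Cre-positive 4, and Rpl39l reached 0.104 CPM in syn-Cre-positive 6, where the other 5 libraries had 0 counts.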

How the results depend on the processing

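No member was called in any Cre contrast under any alternative run, with medians between −0.01 and 0.04 (syn), −0.02 and 0.11 (gfap) and −0.10 and 0.02 (difference) when each library was left out. Between the lines the members' median stayed negative in every alternative run, while the count of called members moved. In Cre-negative mice it was 27 and became 12 with upper-quartile factors, 12 with at least 1 CPM in 6 libraries, 12 with limma-voom, 6 with the groups of the contrast alone, 3 without syn libraries above 1000 CPM of Ttr, and 7 to 42 with each library left out. In Cre-positive mice it was 30 and became 15 with RLE factors, 7 with upper-quartile factors, 8 with at least 1 CPM in 6 libraries, 17 with DESeq2, 57 with limma-voom, 14 with the principal transcript length trend removed (median −0.067), 1 without the Ttr libraries, and 11 to 48 with each library left out. The cause of these moves was not tested, except that the fits without Ttr libraries or on fewer groups hold fewer samples. Shares of all genes called are not given for the alternative runs, so these counts carry no background beside them. Of the values for named genes under alternatives, 670 kept their direction and side of the threshold, 27 lost a call, 1 gained one (Rpl23) and 0 reversed. No paired analysis was possible because the replicate numbers were given in accession order and nothing in the labels ties a library of one group to a library of another. Depth limits Rpl36al, Rpl3l and Rpl24, with at most 45 counts per library.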
